A study of Homo sapiens with 6 samples.

Results

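The metallothionein genes were followed in UE7T-9 cells, an immortalized line of mesenchymal stem cells from human bone marrow. The list held 9 genes fixed by name. These were the 7 metallothioneins MT1A, MT1E, MT1F, MT1G, MT1M, MT1X and MT2A, the transcription factor gene MTF1 and the zinc exporter gene SLC30A1. Of the 28181 genes listed by Ensembl identifier in the files, 8 were members, and MT1G was not analysed here. RNA was sequenced from 3 libraries of UE7T-9 SHC4, which were infected with lentivirus carrying the SHC4 coding sequence behind a CMV promoter and selected with puromycin. The other 3 libraries were UE7T-9 Cont. The methods describe these controls as infected with a GFP lentivirus behind the same promoter and also selected with puromycin. The labels instead call them nontarget with a WT genotype. They are named controls 1, 2 and 3 and the others SHC4 libraries 1, 2 and 3, by the replicate number in the labels. The labels name the libraries of a group as biological replicates and the design text speaks of clones. Whether they came from separate infections, clones or cultures was not given, so the p-values measure only the spread between these libraries. Each value was a normalized count, which is the number of reads of a gene divided by 1 size factor per library. The reads behind the values were recovered, and the libraries held 18144993 to 27721397 reads. A floor of 3 reads, taken as the limit of detection, was a normalized count of 2.50 to 3.53 and covers counting error only.

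Metallothioneins are small cysteine-rich proteins that bind zinc and copper and take up toxic metals such as cadmium. Zinc-bound MTF1 switches on their genes through metal response elements, short motifs repeated in the promoters, and also switches on SLC30A1, which moves zinc out of the cell. Metallothionein transcription is also known to respond to glucocorticoids and to oxidative stress.

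The members lie in 3 places in GENCODE 29 on GRCh38, whose positions were matched by identifier because the build of the files is not given in the sources used here. All 7 metallothioneins are on chromosome 16, from MT2A at 56608199 to 56609497 to MT1X at 56682424 to 56684196. MT1E (56625475 to 56627112), MT1M (56632233 to 56633986), MT1A (56638666 to 56640087) and MT1F (56657694 to 56660698) lie between them on the plus strand, and MT1G (56666731 to 56668065) on the minus strand. MTF1 is on chromosome 1 from 37809567 to 37859620 and SLC30A1 on chromosome 1 from 211571568 to 211578742, both on the minus strand.

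Promoters of 4 of the 9 members were in the RefSeq table (GRCh38.p14), those of MT1X, MT2A, MTF1 and SLC30A1. They are shown because metal response elements are the known point of contact between MTF1 and its target genes. The core of the element was searched as TGCACNC or TGCGCNC on both strands in the 250 bases before each RefSeq start. The MT2A window held 7 matches, which 0.0313% of the 35116 promoters in the table reached. The MT1X window held 4 (0.37% of promoters held at least 4), the SLC30A1 window held 1 (24.8% held at least 1) and the MTF1 window held none. Capitals mark the matches in the sequences, written 5′ to 3′ on the strand of the gene. For MT2A, 3 stretches around single matches are given, since GENCODE 29 also annotates this window as exon of the gene. They lie at chr16:56608423-56608445, chr16:56608488-56608510 and chr16:56608522-56608544 on the plus strand. The MT1X stretch is chr16:56682220-56682423 on the plus strand and ends at the base before the GENCODE gene. The SLC30A1 stretch is chr1:211579162-211579411 on the minus strand. It does not reach the GENCODE gene, which starts at 211578742 on that strand, and the bases between were not searched.
MT2A, match starting 153 bases before the start: gagccgggTGCGCCCggcccagt
MT2A, match starting 88 bases before the start: cgcggggcGTGTGCAggcagcgc
MT2A, match starting 54 bases before the start: ggggctttTGCACTCgtcccggc
MT1X: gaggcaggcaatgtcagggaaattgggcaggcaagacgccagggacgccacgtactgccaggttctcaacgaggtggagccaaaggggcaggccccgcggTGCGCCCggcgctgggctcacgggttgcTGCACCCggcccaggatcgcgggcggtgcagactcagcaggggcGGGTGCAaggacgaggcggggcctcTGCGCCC
SLC30A1: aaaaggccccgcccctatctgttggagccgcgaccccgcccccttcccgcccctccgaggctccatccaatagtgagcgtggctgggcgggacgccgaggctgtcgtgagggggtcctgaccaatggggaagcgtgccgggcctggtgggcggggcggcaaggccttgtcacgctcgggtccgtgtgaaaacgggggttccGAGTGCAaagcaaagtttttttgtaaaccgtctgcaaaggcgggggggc
The match in the MT1X stretch that reads GGGTGCA and the matches GTGTGCA in MT2A and GAGTGCA in SLC30A1 lie on the opposite strand. A match is a description of letters and no proof of a bound site.

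SHC4, the overexpressed gene, was read first as the check of the labels. Its normalized count was 114 ± 51.8 in the controls and 136347 ± 17966 in the SHC4 libraries (SD, n = 3 each). All 8 markers of mesenchymal stem cells were detected in each library, with normalized counts from 1487 to 315042. The 3 blood markers with a row summed to 121 to 141 in the controls and 108 to 115 in the SHC4 libraries. The 3 endothelial markers summed to 47.2 to 73.1 and 48.3 to 95.7, and the 3 epithelial markers to 17.7 to 34.1 and 9.16 to 29.9. PTPRC, CDH5 and EPCAM were at 0 in at least 1 library. The part of these marker levels in the results was not tested. Control 1 stood apart from the other 2 controls in some of the mesenchymal markers, as in PDGFRB with a count of 4122 against 1487 and 1678. The SHC4 libraries had PDGFRB counts of 6634, 5281 and 5178, above every control (log2 fold change 1.38, limma adjusted p = 0.162, DESeq2 adjusted p = 0.0171). THY1 had 7742, 2940 and 2286 in the controls and 7845, 9570 and 7512 in the SHC4 libraries, with overlap (limma adjusted p = 0.234). NT5E went the other way, with 13089, 22364 and 20649 in the controls and 14682, 12068 and 16005 in the SHC4 libraries. Its log2 fold change was -0.36 (limma adjusted p = 0.508). Of the 8 mesenchymal markers, 6 had a positive and 2 a negative log2 fold change.

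No member passed the test for a difference between the groups. MT2A was the most abundant metallothionein in every library, and MT1E came next. The 4 metallothioneins with more than a few reads varied 2.09-fold to 3.91-fold among the 3 controls alone. In each of these 4 genes the replicate 1 library was the highest of its group, in the controls and in the SHC4 libraries. Within the family, MT1E, MT1M and MT1X reads were more frequent relative to MT2A reads in all 3 SHC4 libraries than in any control. For MT1X the margin was less than the counting error of the nearest libraries. For MT1M the counting errors of control 1 and SHC4 library 3 overlapped. Taken 1 gene at a time, 11.6% of all other genes tested also had a ratio to MT2A higher in every SHC4 library.

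MT2A, the main metallothionein of most human cells, had normalized counts of 15291, 8614 and 7306 in controls 1, 2 and 3. They were 10889, 5080 and 5241 in SHC4 libraries 1, 2 and 3. The groups overlapped because SHC4 library 1 lay above controls 2 and 3, while the other 2 SHC4 libraries lay below every control. The means were 10404 ± 4283 and 7070 ± 3308 (SD, n = 3 each), and the difference on the log2 scale was -0.58 (standard error 0.34, 95% interval -1.35 to 0.19, limma adjusted p = 0.476). In bulk RNA, fewer expressing cells and less RNA per cell cannot be told apart. The log2 fold change stayed below 0 with each library left out in turn, from -0.94 without SHC4 library 1 to -0.26 without control 1 (limma adjusted p between 0.212 and 0.808 over the 6 fits). With both replicate 1 libraries left out, a setting chosen after the data were seen, the log2 fold change of MT2A was -0.62 and its limma adjusted p 0.0163. That is below the fold threshold for a call, and in that fit of 2 libraries against 2, 9.58% of all genes tested had an adjusted p below 0.05.

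MT1E, one of several copies of the MT1 gene, had normalized counts of 2290, 1087 and 860 in controls 1, 2 and 3. They were 2367, 904 and 1035 in the SHC4 libraries. The replicate 1 libraries of both groups stood above the other 4, and the groups overlapped over most of their range. Its log2 fold change was 0.02 (standard error 0.41, limma adjusted p = 0.990), with a 95% interval from -0.92 to 0.95. The sign was unstable, running from -0.41 without SHC4 library 1 to 0.43 without control 1, and it was -0.09 under library size scaling.

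MT1M, a further MT1 copy, had 69.2, 27.1 and 17.7 in the controls and 84.4, 43.3 and 40.8 in the SHC4 libraries. Its mean was 38.0 ± 27.4 and 56.1 ± 24.5 (SD, n = 3 each), with control 1 above 2 of the SHC4 libraries. On the log2 scale the difference was 0.70 (standard error 0.50, limma adjusted p = 0.563), and it was 1.24 without control 1 (limma adjusted p = 0.114). MT1X, whose promoter is printed above, had 73.1, 35.3 and 25.6 in the controls and 57.1, 45.8 and 36.1 in the SHC4 libraries. The controls enclosed the SHC4 libraries. The log2 fold change was 0.17 (standard error 0.41, limma adjusted p = 0.888) and went from -0.16 without control 3 to 0.58 without control 1 (limma adjusted p = 0.369 in the latter).

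MT1A and MT1F stayed near the floor. MT1A had 3, 2 and 0 reads in the controls and 4, 2 and 0 in the SHC4 libraries. MT1F had 1, 1 and 0 reads in the controls and 8, 1 and 0 in the SHC4 libraries. A difference between the groups was not detectable at this depth in either gene, and no direction is read from the fits of these genes.

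**Figure D1:**
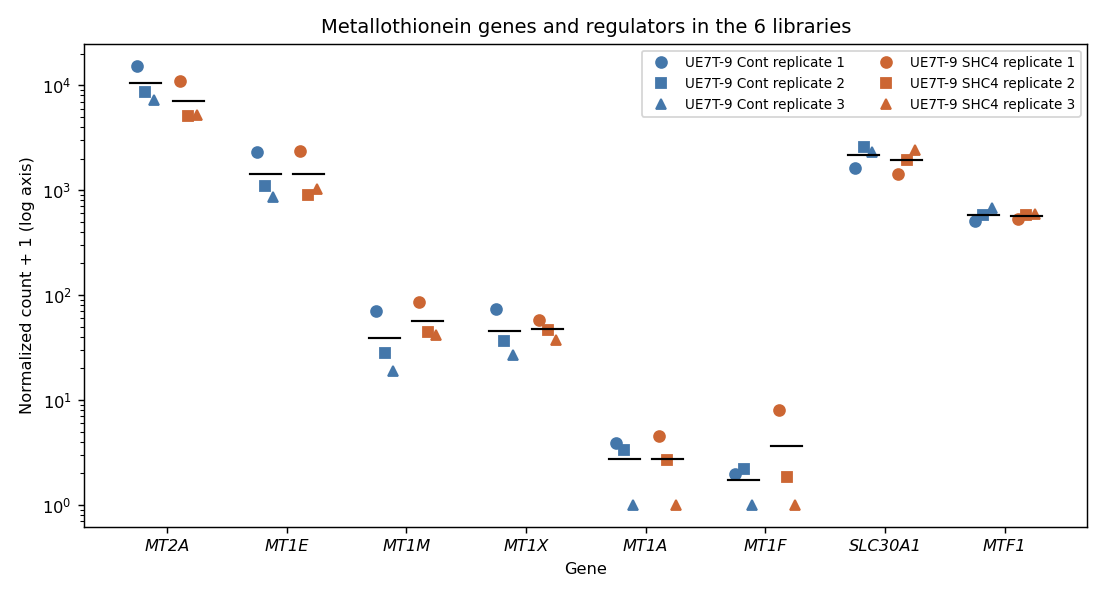
Normalized count plus 1 of the 8 members (vertical log axis) in each of the 6 libraries, with the group by colour, the replicate number by marker shape and the mean of 3 libraries as a black line. MT2A lies between 5080 and 15291, MT1E between 860 and 2367, and the circles of replicate 1 are the highest of each group for MT2A, MT1E, MT1M and MT1X but the lowest for SLC30A1 and MTF1.

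The regulators varied 1.12-fold to 1.69-fold between the libraries of a group. MTF1, the zinc sensor that activates metallothionein transcription, had 507, 579 and 669 in the controls and 533, 583 and 596 in the SHC4 libraries. Its difference on the log2 scale was -0.03 (standard error 0.14, limma adjusted p = 0.949), and the 95% interval of -0.35 to 0.29 was the narrowest among the members. SLC30A1, the zinc exporter of the cell surface, had 1642, 2564 and 2331 in the controls and 1429, 1924 and 2421 in the SHC4 libraries. Its log2 fold change was -0.19 (standard error 0.22, limma adjusted p = 0.747), and the groups overlapped. Without control 1 it was -0.38 (limma adjusted p = 0.309) and without SHC4 library 1 it was 0.01. Both genes were lowest in the replicate 1 library of each group, where MT2A, MT1E, MT1M and MT1X were highest. Of all genes tested, 18.4% were highest and 19.9% lowest in replicate 1 of both groups, so a position of this kind alone is common. A rise of at least 0.9 on the log2 scale over both other libraries in both groups was found in 0.981% of genes. Of the members, MT1E and MT1M met that level, which was chosen after the values were seen. For MT1E this was 2290 against 1087 at most among the other controls and 2367 against 1035 at most among the other SHC4 libraries.

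With limma on log2(normalized count + 1), 0 of the 8 members tested passed an adjusted p below 0.05 with a log2 fold change beyond 1 in either direction, against 0.0608% of the 23040 genes tested. At an unadjusted p below 0.05 there were 0 members, against 14.4% of all genes. DESeq2 on the recovered reads called 0 of the 6 members with an adjusted p (none was given for MT1A and MT1F), against 2.2% of 16153 genes. The edgeR quasi-likelihood test called 0 of the same 6, against 0.0631% of 15859 genes. The exact two-sided permutation test gave members p-values of 0.5 to 1, where 0.1 is the smallest that 3 against 3 libraries allow. No member had groups that did not overlap, against 19.3% of all genes tested. The median log2 fold change of the 6 metallothioneins tested was 0.09, and that of all genes tested was -0.004. The median over the 4 with a mean of at least 10 was also 0.09. Over fits that each dropped 1 library, the median of the metallothioneins still above the filter ran from -0.41 without SHC4 library 1 to 0.51 without control 1, so its sign depended on single libraries.

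**Figure D2:**
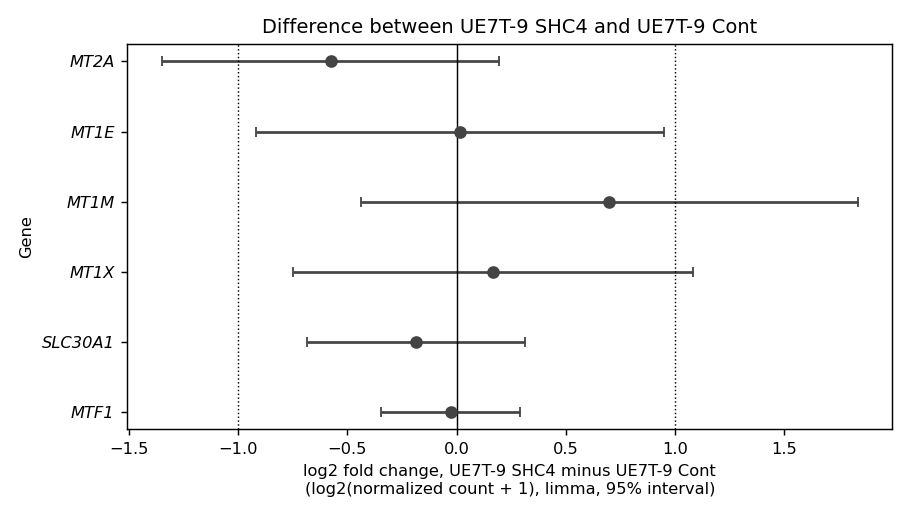
Log2 fold change of UE7T-9 SHC4 over UE7T-9 Cont (horizontal axis, limma on log2(normalized count + 1)) for the 6 members with a mean of at least 10, with bars for the 95% interval and dotted lines at -1 and 1. Every interval contains 0, from -0.35 to 0.29 for MTF1 to -0.44 to 1.84 for MT1M.

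Per kilobase of annotated exon, the order of the levels in the controls was MT2A (8009 ± 3297 normalized counts per kilobase), MT1E (1342 ± 731), SLC30A1 (398 ± 87.6), MTF1 (72.9 ± 10.1), MT1M (40.3 ± 29.1), MT1X (25.2 ± 14.2), MT1A (4.44 ± 3.91) and MT1F (0.380 ± 0.333), each as mean and SD of 3 libraries. In the SHC4 libraries the order was the same, with 5443 ± 2547 for MT2A, 1364 ± 769 for MT1E, 59.6 ± 26.0 for MT1M and 26.1 ± 5.94 for MT1X. The ranges of MTF1 and MT1M overlapped in both groups, as did those of MT1M and MT1X in the controls and of MT1A and MT1F in both groups. Exon length was the union over all annotated transcripts of a gene. For MT2A (1299 bases) and MT1X (1773 bases) it took in the whole annotated gene, so the order across genes depends on the annotation.

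The 6 metallothioneins with a row took 0.0407% to 0.0760% of all reads in the controls and 0.0263% to 0.0579% in the SHC4 libraries. The lower bound of the controls (control 3) lay below SHC4 library 1, so the totals overlapped. MT2A made up 86.3%, 88.2% and 89.0% of the metallothionein reads in controls 1, 2 and 3 and 81.2%, 83.6% and 82.5% in the SHC4 libraries. The Wilson 95% intervals nearest to each other were 85.8% to 86.8% in control 1 and 82.7% to 84.4% in SHC4 library 2, and they cover counting error only.

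For every 100 MT2A reads there were 15.0, 12.6 and 11.8 MT1E reads in controls 1, 2 and 3 and 21.7, 17.8 and 19.8 in the SHC4 libraries. The 3 SHC4 libraries lay above the 3 controls, with means of 19.8 ± 1.97 against 13.1 ± 1.66 (SD, n = 3 each), a ratio 1.51-fold higher. MT1M gave 0.453, 0.314 and 0.242 reads per 100 MT2A reads in the controls and 0.775, 0.852 and 0.778 in the SHC4 libraries, a ratio 2.46-fold higher. MT1X gave 0.478, 0.410 and 0.350 against 0.525, 0.901 and 0.689, a ratio 1.68-fold higher. The fold of each ratio was taken from the difference of the mean log2 ratios of the groups. In all 3 genes the groups did not overlap. For MT1X the nearest libraries lay within counting error of each other. Its Wilson 95% interval as a share of the metallothionein reads was 0.329% to 0.517% in control 1 and 0.334% to 0.543% in SHC4 library 1. For MT1M the interval in control 1 was 0.310% to 0.492%. It overlapped that of SHC4 library 3 (0.462% to 0.891%) but not that of SHC4 library 1 (0.516% to 0.768%). A ratio within a library does not depend on the scaling of that library, so it shows unequal levels of the genes and not which of them moved. The 3 ratios share MT2A as the denominator and are not independent of each other. Among all other genes tested, 11.6% had a ratio to MT2A that was higher in every SHC4 library than in every control, and 12.1% of those with a mean of at least 10. The ratio was examined after the values were seen, and no test is given for it.

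**Figure D3:**
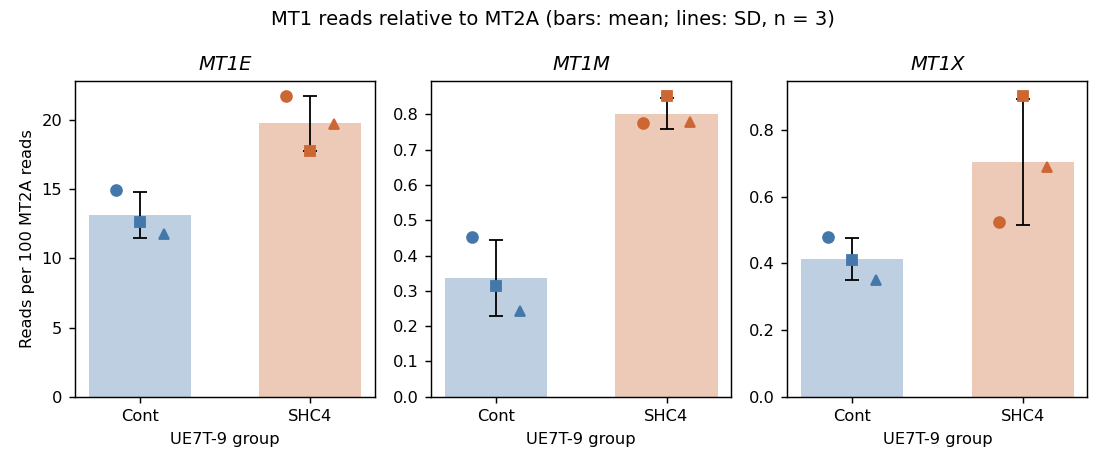
Reads of MT1E, MT1M and MT1X per 100 MT2A reads (vertical axes from 0, 1 scale per gene) in UE7T-9 Cont and UE7T-9 SHC4, with bars for the mean, lines for the SD of 3 libraries and points for the libraries (circle, square and triangle for replicates 1, 2 and 3). The lowest UE7T-9 SHC4 library lies above the highest control in each panel, with 17.8 above 15.0 for MT1E, 0.775 above 0.453 for MT1M and 0.525 above 0.478 for MT1X.

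Reads of near-identical copies limit these values. In GENCODE 29, 8.66% of the 25-base words of MT2A also occur in transcripts of other genes, most of them in the processed pseudogene MT2P1. The share was 19.8% for MT1E, 29.3% for MT1M and 20.5% for MT1X, whose leading partner AC026461.1 overlaps it on the same strand. It was 26.9% for MT1A, 4.98% for MT1F, 2.94% for MTF1 and 0% for SLC30A1. For words of 75 bases it was 0% for MT2A, 1.42% for MT1E, 0.231% for MT1M and 14.3% for MT1X. Read length and the handling of reads with several matches were not given in the sources used here, so levels of MT1X in particular are uncertain.

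Further metallothionein genes and pseudogenes were few. Of 14 listed, 4 had a row and a mean of at least 1, and limma called 0, against 0.0608% of all genes tested. At an unadjusted p below 0.05 in limma there were 2, a level that 14.4% of all genes reached. MT2P1, a processed pseudogene on chromosome 4 that shares 61.0% of its 25-base words with other transcripts, most of them of MT2A, had 70.2, 91.8 and 61.0 in the controls and 55.4, 40.0 and 41.9 in the SHC4 libraries. The SHC4 libraries lay below all controls (log2 fold change -0.68, standard error 0.27, limma adjusted p = 0.305). Groups without overlap were found in 19.3% of all genes tested. The nearest libraries, control 3 at 61.0 and SHC4 library 1 at 55.4, rested on 62 and 63 reads. MT1L, a transcribed pseudogene between MT2A and MT1E, had 2, 0 and 2 reads in the controls and 19, 9 and 2 in the SHC4 libraries (limma adjusted p = 0.304). Its controls were all under the floor, as was SHC4 library 3. MT1JP was at 0 to 5.85 and MT3, the brain form, at 0 to 3.53.

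The genes whose levels over the 6 libraries lay nearest to the mean profile of MT2A, MT1E, MT1M and MT1X were mostly ribosomal. The measure was the root mean square difference of log2(normalized count + 1), each gene centred on its own mean, over 12619 genes with a mean of at least 50 outside the lists. The nearest were RPS28P7 (0.0772), RPS2P5 (0.0783), RPL18AP3 (0.0940), RPL38 (0.108) and CYBA (0.112), against a median of 0.579 over all genes ranked. RPS28P7, RPS2P5 and RPL18AP3 are pseudogenes of ribosomal protein genes, RPL38 encodes a protein of the large ribosomal subunit and CYBA a subunit of the NADPH oxidase. RPL38 had normalized counts of 4065, 2116 and 1847 in the controls and 3847, 2209 and 2171 in the SHC4 libraries, so both replicate 1 libraries stood above the other 4. Of the members, MT1E lay nearest to the mean profile (0.135), followed by MT1X (0.186), MT1M (0.337) and MT2A (0.350), which all 4 enter into that mean. MTF1 (0.663) and SLC30A1 (0.824) were farther from it than the median gene.

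**Figure D4:**
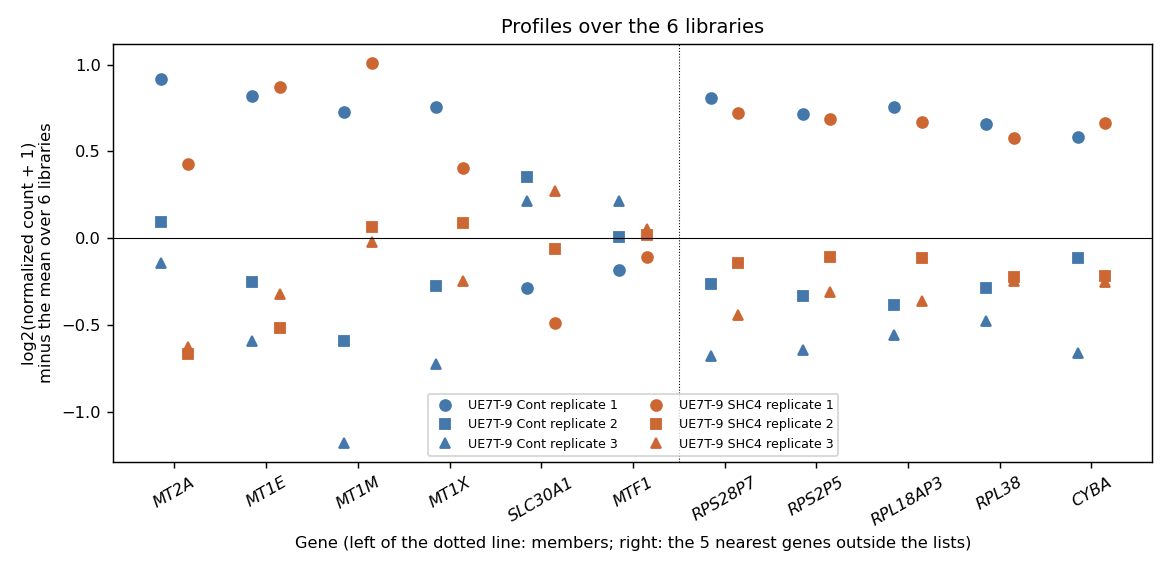
Log2(normalized count + 1) minus the mean of the gene over the 6 libraries (vertical axis) for 6 members and, right of the dotted line, the 5 genes outside the lists with the nearest profile. Circles (replicate 1) lie at the top of both groups for the metallothioneins and for the 5 nearest genes, and at the bottom for SLC30A1 and MTF1.

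The ribosomal protein genes as a class stood highest in the same libraries as the metallothioneins. Of 81 cytosolic ribosomal protein genes with a mean of at least 50, 76 were highest in replicate 1 of both groups (93.8%), against 23.4% of the 12678 genes at that level. Their median centred log2 value was 0.34, -0.29 and -0.45 in controls 1, 2 and 3 and 0.50, -0.05 and -0.03 in the SHC4 libraries. The mean profile of the 4 metallothioneins was 0.81, -0.26 and -0.66 and then 0.68, -0.26 and -0.30. In 192 processed pseudogenes the median was 0.17 and 0.15 in the replicate 1 libraries and between -0.13 and -0.02 in the other 4. In protein-coding genes with under 1000 bases of exon, the median lay between -0.05 and 0.07 in all libraries. From 1000 to under 3000 bases, where MT2A, MT1E and MT1X fall, the median was 0.04 and 0.07 in the replicate 1 libraries. It lay between -0.06 and 0.01 in the others. Highest in replicate 1 of both groups were 30.8% of genes under 1000 bases and 31.5% from 1000 to under 3000. The share was 24.2% from 3000 to under 6000 and 19.4% from 6000 upward. These classes were chosen after the profiles were seen. The part of whatever the replicate 1 libraries share in the metallothionein levels was not tested.

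**Figure D5:**
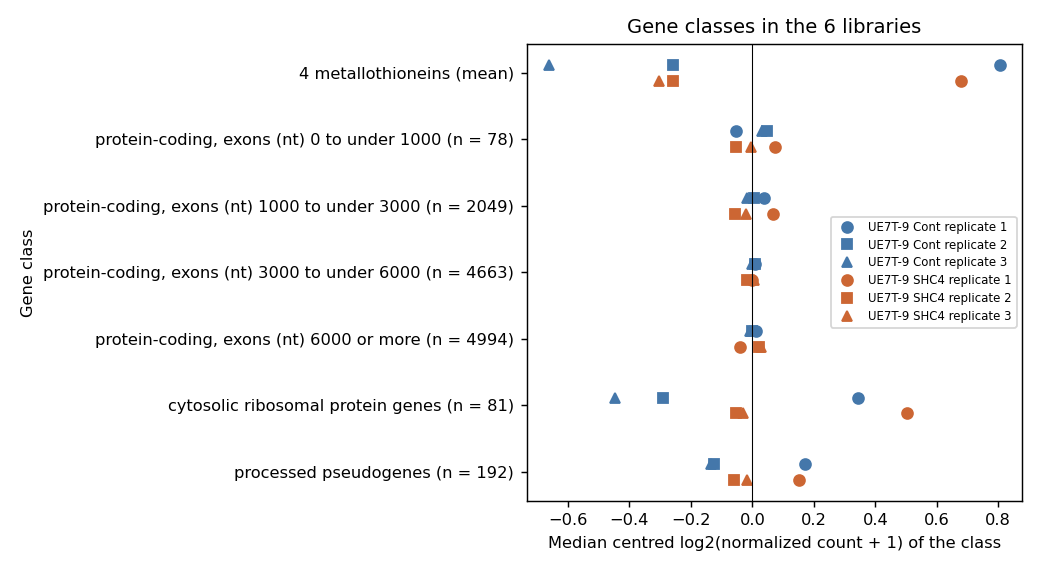
Median centred log2(normalized count + 1) of gene classes (horizontal axis) in each of the 6 libraries, with the mean of MT2A, MT1E, MT1M and MT1X in the top row, 4 classes of protein-coding genes by exon length in bases, ribosomal protein genes and processed pseudogenes. The circles of replicate 1 lie to the right for metallothioneins (0.81 and 0.68) and ribosomal protein genes (0.34 and 0.50), and near 0 for the classes by length.

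Other zinc and copper genes gave 0 calls in limma, which called 0.0608% of the 23040 genes tested. Among the SLC30 family genes, listed as zinc exporters, 8 of 9 besides SLC30A1 had a mean of at least 1. There were 4 positive and 4 negative log2 fold changes (median -0.03) and 0 at an unadjusted p below 0.05 in limma. SLC30A9, the most abundant, had 1742 ± 42.2 in the controls and 1804 ± 43.1 in the SHC4 libraries (SD, n = 3 each). The smallest unadjusted p-values were those of SLC30A6 (log2 fold change -0.25, limma adjusted p = 0.429) and SLC30A7 (0.23, limma adjusted p = 0.447).

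Among the SLC39 importers, which carry zinc into the cytosol, 12 of 14 were tested, with a median log2 fold change of 0.17. At an unadjusted p below 0.05 in limma, 1 was higher and 2 were lower (25%, against 14.4% of all genes). SLC39A13, a zinc transporter of the secretory pathway, had 2060, 2201 and 2293 in the controls and 2681, 3052 and 2872 in the SHC4 libraries. The groups did not overlap, and the log2 fold change was 0.39 (standard error 0.12, limma adjusted p = 0.203, DESeq2 adjusted p = 0.0739). SLC39A9 had 1574 ± 97.8 and 1262 ± 80.1 (SD, n = 3 each), without overlap (limma adjusted p = 0.272). SLC39A7, the most abundant, had 4720 ± 312 and 4570 ± 533.

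Among 9 copper transport and chaperone genes, 2 had an unadjusted p below 0.05 (22.2%, against 14.4% of all genes), and both were higher in the SHC4 libraries, while the median log2 fold change was 0.03. CCS, the chaperone that loads copper into superoxide dismutase, had 504, 423 and 374 in the controls and 697, 721 and 671 in the SHC4 libraries. Every SHC4 library lay above every control. The log2 fold change was 0.69 (standard error 0.14, limma adjusted p = 0.122), and DESeq2 gave an adjusted p of 0.00762, where 4.14% of its genes had one below 0.05. ATP7B, a copper-exporting ATPase, had 89.2 ± 6.57 and 139 ± 12.4 (SD, n = 3 each), also without overlap (limma adjusted p = 0.207, DESeq2 adjusted p = 0.106). SOD1, the target of CCS and the most abundant of the list, had 2586 ± 154 and 2556 ± 283.

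Genes of stress and hormone responses that share inducers with metallothioneins gave 0 calls in limma, against 0.0608% of all genes tested. Of 12 oxidative and electrophile stress genes, 7 had a negative and 5 a positive log2 fold change, with a median of -0.12, and 2 were lower at an unadjusted p below 0.05 (16.7%, near the 14.4% of all genes). SLC7A11, the cystine transporter, had 1622, 2646 and 2737 in the controls and 1604, 1079 and 1460 in the SHC4 libraries. All SHC4 libraries lay below the controls, though control 1 by a small margin (log2 fold change -0.74, standard error 0.22, limma adjusted p = 0.206, DESeq2 adjusted p = 0.0530). GCLM, a subunit of the enzyme that limits glutathione synthesis, had 1378 ± 183 and 1051 ± 101 (limma adjusted p = 0.272). TXNRD1, the most abundant, had 8189 ± 1381 and 6805 ± 679 (SD, n = 3 each).

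Of 9 glucocorticoid response genes, 7 had a positive log2 fold change and the median was 0.23. At an unadjusted p below 0.05, 3 were higher and 1 lower (44.4%, against 14.4% of all genes). FKBP5, a chaperone induced by the glucocorticoid receptor, was the lower one, with 1098, 797 and 857 in the controls and 687, 527 and 469 in the SHC4 libraries. The groups did not overlap (log2 fold change -0.71, standard error 0.18, limma adjusted p = 0.174, DESeq2 adjusted p = 0.0338). KLF9, a transcription factor gene induced by the same receptor, had 540 ± 271 and 993 ± 241 (SD, n = 3 each, limma adjusted p = 0.253). FKBP5 and KLF9 lay on opposite sides of 0. In KLF9 the groups overlapped, with control 1 at 829 above SHC4 library 1 at 723. Of the 9 genes, 4 had groups without overlap (44.4%, against 19.3% of all genes tested). NR3C1, the receptor gene itself and the most abundant of the list, had 3170 ± 281 and 3711 ± 305 (limma adjusted p = 0.456).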

How the data were processed

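RNA-seq of 3 UE7T-9 Cont and 3 UE7T-9 SHC4 libraries was analysed. The deposited values are a signal (normalized count) in which the authors scaled the reads of a gene by the size factor of its library, with HISAT2 2.0.5, featureCounts 1.5.0-p3 and DESeq2 per the submitters' processing notes. The genome build, annotation, strand setting and read length were not given in the sources used here. All values (100%) were whole multiples of the value of 1 read within 0.01 reads, so reads were recovered by division. On these, DESeq2 1.42.0 called 355 and edgeR 4.0.16 called 10 genes. Symbols were found for 99.2% of identifiers. The principal test was limma 3.58.1 (trend, under R 4.3.3), fitted to log2(value + 1) of the 23040 genes averaging 1 or more, with Benjamini-Hochberg adjustment over them all. Fold changes on this scale understate those of genes with few reads. Calls needed both an adjusted p under 0.05 and a log2 fold change beyond 1 in size. The fits were tested on simulated counts. Alternatives were other scalings, filters and pseudocounts, a replicate block and each library left out. The members and lists were chosen with earlier results of these data known. Named from each list were genes with a limma call or a DESeq2 adjusted p under 0.05, the 2 with the smallest limma p and the most abundant, all further metallothionein genes averaging 1 or more, and the 5 genes nearest in profile. Sequences came from RefSeq (GRCh38.p14) and GENCODE 29.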

Additional observations from a re-analysis of the deposited data

How the results depend on the processing

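The count of members called was 0 under all 16 alternatives run, DESeq2 and edgeR included. The number of all genes called higher was 12, but 22 with library size scaling, 20 with TMM, 31 with no filter on low values, 25 with the replicate block and 170 in DESeq2. With each library left out it ran from 1 to 367, the highest being without control 1, and it was 494 without both replicate 1 libraries, an alternative chosen after the data were seen. The number called lower was 2, but 6 with library size scaling, 4 with TMM, 1 with pseudocount 0.1, 9 with no filter, 14 with the replicate block, 185 in DESeq2 and 1 in edgeR. With each library left out it ran from 0 to 339, the highest again without control 1, and it was 378 without both replicate 1 libraries. The causes were not tested. The log2 fold change of MT2A was below 0 and that of MT1M above 0 in every alternative run. With a library left out, MT1A ran from -0.663 to 0.555, MT1E from -0.413 to 0.431, MT1X from -0.156 to 0.583, MTF1 from -0.127 to 0.0733 and SLC30A1 from -0.378 to 0.0118, each changing sign. MT1A was also at 0.0104 in DESeq2 and MT1E at -0.0863 with library size scaling. Whether the replicate numbers pair the libraries is uncertain. Correlations between same-numbered libraries, taken on deviations from the mean of each group, were 0.148, 0.0130 and -0.00696 for replicates 1, 2 and 3 over the 23040 genes tested. Among 12678 genes averaging 50 or more they were 0.409, 0.146 and 0.149, but control 2 had 0.517 with SHC4 library 3. In both sets control 2 correlated best with another number, and no pairing was assumed. With the replicate block the unadjusted p of MT2A went from 0.125 to 0.00176, a level below 0.05 that 17.5% of all genes reached, and its limma adjusted p from 0.476 to 0.103. In each of the 3 numbers MT2A was lower in the SHC4 library than in the control. Depth limits MT1A and MT1F, with at most 8 reads in a library, so their fitted values carry no direction, and MT1F fell under the filter on low values without SHC4 library 1, which held those 8 reads.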
